A study of Mus musculus with 32 samples.

Results

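The 35 genes described here encode the signalling chains of the pre-B and B cell receptor, the kinases, adaptors and lipid enzymes that act next to it, and the Ras-MAPK and NF-kB branches downstream. They were chosen by name from 21951 protein-coding genes of the mouse annotation. No measured value entered the choice, but earlier results of these data were known when it was made. Binding of Ikaros (IKZF1) and of CHD4, and the histone mark H3K27ac, were measured by ChIP-seq. The cells were B3, a mouse pre-B cell line retrovirally transduced with Ikaros-ERt2, and the question asked here was whether Ikaros and CHD4 reached these genes, and whether their H3K27ac differed, early after induction. All libraries came from the transduced line, whether left without treatment (0 h) or given 500 nM 4-hydroxytamoxifen (4-OHT) for 30 min, 1 h or 2 h, with 2 replicates per time and target. ERt2 is a hormone receptor domain meant to keep the fusion protein out of the nucleus until 4-OHT is added. The untreated Ikaros libraries still gave 7822 and 9527 peaks at 0 h. Whether these were fusion protein already in the nucleus or signal without it was not tested. Ikaros was pulled down through its HA tag, so untagged Ikaros was not measured, and no library of untransduced cells or of transduced cells with solvent was analysed here. Whether the transduced line is a clone, and whether the replicates were separate cultures, is not given in the sources used here, so that p-values measure only the spread between these libraries.

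Pairing of the immunoglobulin chain with the surrogate light chain, and later with a light chain, places a receptor on the cell surface whose CD79 chains recruit Syk and Src-family kinases. Blnk then joins Btk and Plcg2 to the receptor, and PI3 kinase, Ras and NF-kB signals follow, which in pre-B cells accompany the passage from proliferation to light chain rearrangement. Ikaros is a zinc finger transcription factor of lymphoid cells, CHD4 is the nucleosome remodelling ATPase of the NuRD complex, and H3K27ac is an acetylation of histone H3 found at promoters and enhancers in use.

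For each gene and peak list, any peak with a base within 20 kb of any annotated transcription start site (TSS) was assigned to the gene, and a gene with such a peak is named called in that list. Each peak was given the percentile rank of its fold enrichment in its own list, from near 0 for the weakest peak to 100 for the strongest, and the value of a gene was the highest rank among its peaks. The comparison group was the 9704 other protein-coding genes with an H3K27ac peak within 1 kb of a TSS in both 0 h lists, a criterion that 33 of the 35 genes met, the exceptions being Vav3 and Prkcb. The 35 genes had a median of 6 annotated TSSs and the other genes 5. A peak within 20 kb need not belong to the gene it was assigned to, and where no peak was called, binding under the calling threshold remains possible.

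The Ikaros lists held 5373 to 14874 peaks, the CHD4 lists 2488 to 9593 and the H3K27ac lists 21468 to 33664. The Ikaros lists were longer at 1 h and 2 h (12447 to 14874 peaks) than at 0 h and 30 min (5373 to 9527). The most common background against which Ikaros peaks were called, which moves with sequencing depth, was 3.40 and 2.70 fragments per base at 0 h, 1.98 to 2.54 at 30 min and 1 h, and 2.85 and 2.12 at 2 h. It ranged from 2.69 to 3.75 in the H3K27ac lists. The depth behind the CHD4 lists is unknown. The label of a pre-B cell was checked on H3K27ac at marker genes: 9 of 10 B lineage markers had a promoter peak in all 8 lists, and Rag1 in 7. Of 6 T lineage markers, 4 (Cd3e, Cd3g, Cd4 and Cd8a) had none in any list and Cd5 and Lck had one in all 8. Of 5 myeloid markers 4 had none and Lyz2 had one in 1 list, and of 4 erythroid markers 3 had none and Klf1 had one in all 8.

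Sequence at the summits is shown for newly bound regions, since these are the places where the tagged protein was called only after induction. Of the 6 strongest newly bound Ikaros regions near the 35 genes, 4 summits lay off any untranslated region, and the 101 bases around each are given with the genome strand of GRCm38.p6 (mm10), beside the strongest region that was called in every list, which was added after its values were seen. Capitals mark GGGAA or its reverse complement TTCCC, the core that Ikaros zinc fingers are known to bind, searched on both strands.
Dok3 newly bound region, chr13:55528068-55528168: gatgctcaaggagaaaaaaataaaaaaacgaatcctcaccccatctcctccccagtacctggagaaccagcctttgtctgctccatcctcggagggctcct
Blk newly bound region, chr14:63377246-63377346: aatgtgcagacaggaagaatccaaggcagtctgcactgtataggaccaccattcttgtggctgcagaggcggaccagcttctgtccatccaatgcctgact
Fyn newly bound region, chr10:39413152-39413252: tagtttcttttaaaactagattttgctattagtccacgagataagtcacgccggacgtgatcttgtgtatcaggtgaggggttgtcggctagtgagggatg
Pik3cd newly bound region, chr4:149665331-149665431: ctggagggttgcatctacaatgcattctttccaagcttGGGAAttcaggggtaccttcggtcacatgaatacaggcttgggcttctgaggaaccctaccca
Rac2 region bound in every list, chr15:78572976-78573076: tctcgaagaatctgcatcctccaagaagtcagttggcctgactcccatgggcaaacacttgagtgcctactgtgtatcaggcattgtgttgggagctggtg
The motif stood in the Pik3cd window, at 1 match, and in none of the other 4 printed. The authors used a looser rule, counting GGAA, GGGA and their reverse complements. Each of the 5 windows printed meets that rule. Of the 2 newly bound regions not printed, the Cd22 window held 3 matches and the Nfkb1 window 0. Among all 14225 peaks of the first 2 h Ikaros list, 35.7% of windows of this length held it, as did 30 of the 93 windows (32.3%) at Ikaros regions near the 35 genes. A match is a description of the letters and not a binding site. GC content of the 5 windows was 44.6% at Fyn, 50.5% at Dok3 and at Pik3cd, 51.5% at Rac2 and 52.5% at Blk.

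Ikaros peaks were called near 25 of the signalling genes in both 0 h lists and near 30 in both 2 h lists, which held more peaks. With lists of equal size, made of the strongest peaks of each list up to the number in the shortest list of the target, the counts were 20 and 21, and the other genes stood at 30.7% and 32.3%. Of the 33 genes with promoter H3K27ac at 0 h, 25 were called in both 0 h lists, against 45.2% of the other genes, 21 in both 30 min lists (other genes 32.6%), 31 in both 1 h lists (66.4%) and 30 in both 2 h lists (67.0%). In all 8 lists 20 genes were called, 60.6% of the 33, against 27% of the other genes. All 35 had a peak in at least 1 list, while 9.27% of the other genes had none in any. Nearer to the TSS, within 1 kb, 15 of the 33 were called in both 0 h lists and 25 in both 2 h lists, where the other genes had 26.4% and 48.0%. The median Ikaros rank over the 35 genes, with 0 for a missing peak, ran from 21.8 in the second 30 min list to 87.1 in the second 1 h list, and over the other genes from 0 to 56.2.

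**Figure D1:**
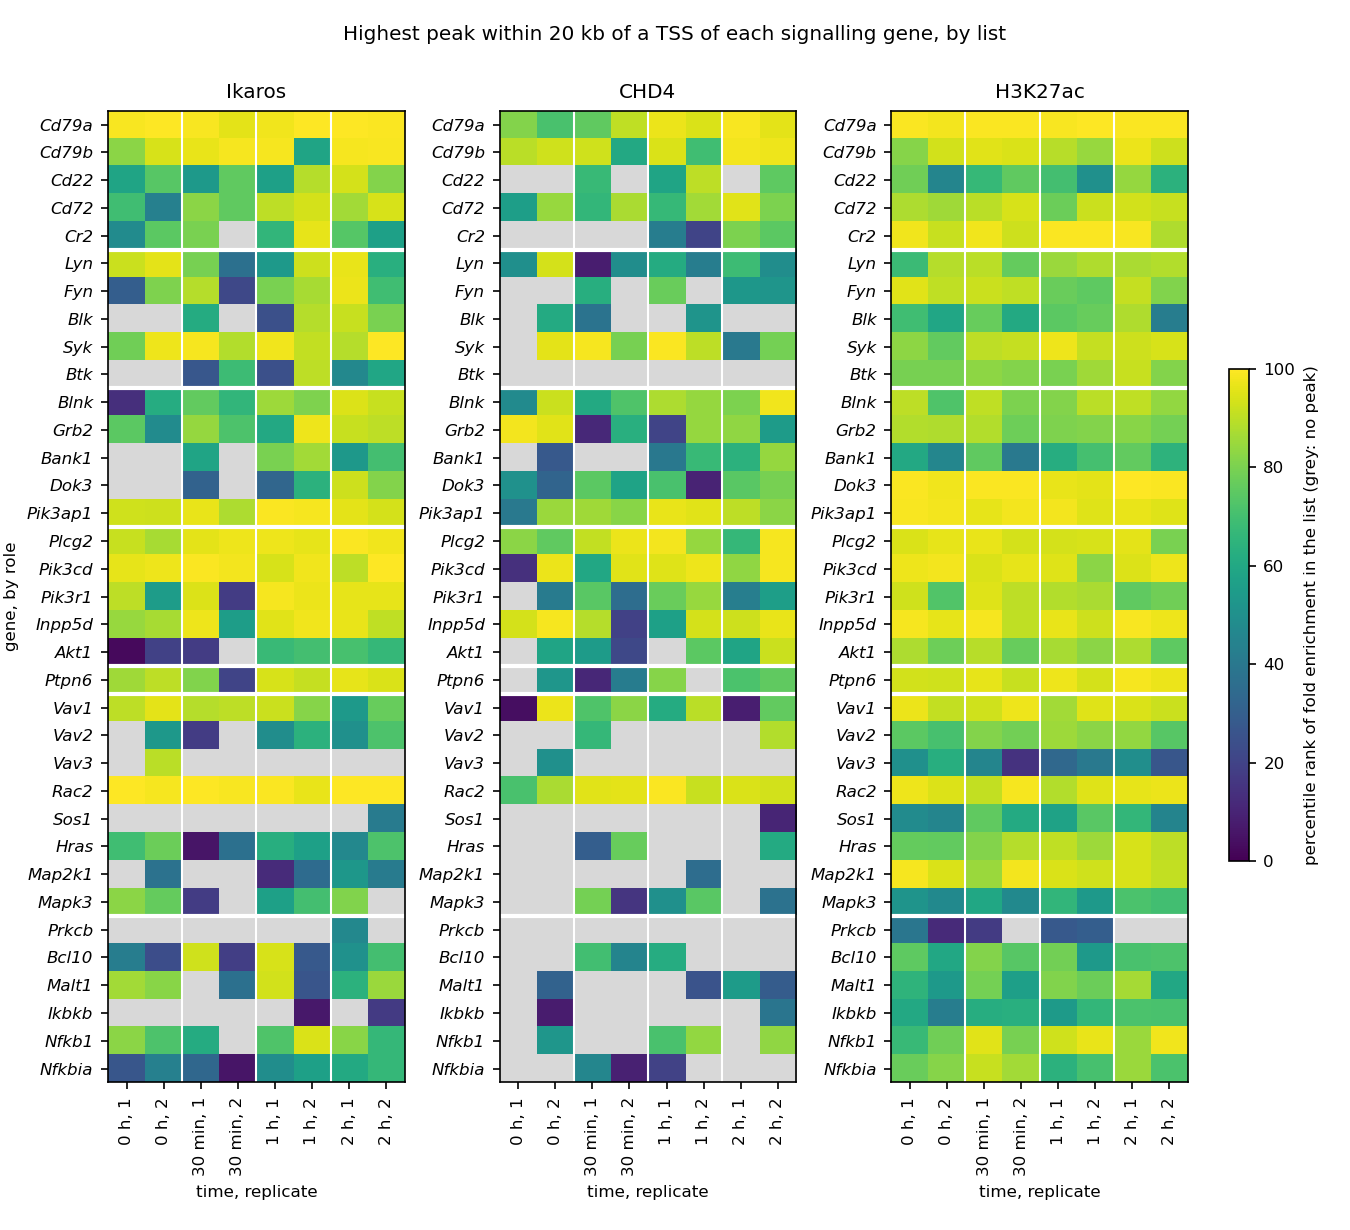
Percentile rank of the strongest Ikaros, CHD4 and H3K27ac peak within 20 kb of a TSS, for the 35 genes (rows, grouped by role) in each of the 8 lists of a target (columns, time and replicate), with grey for no peak. Rac2 and Cd79a stay above rank 96 for Ikaros in all 8 lists, and Btk and Prkcb are grey throughout for CHD4.

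CHD4 was called near 13 of the signalling genes in both 0 h lists and near 21 in both 2 h lists. With lists of equal size the counts were 12 and 14, and the other genes stood at 10.1% and 9.71%. At a −log10 q of at least 3 the counts were 3 and 2, and the other genes stood at 1.53% and 1.22%. Of the 33 genes, 13 were called in both 0 h lists, against 14.1% of the other genes, 21 in both 30 min lists (15.6%), 20 in both 1 h lists (24.6%) and 21 in both 2 h lists (27.7%). The 13 genes of the 0 h lists were the 13 called in all 8 lists, 39.4% of the 33, while 7.93% of the other genes were. Within 1 kb of a TSS, 9 genes had CHD4 in both 0 h lists and 16 in both 2 h lists, where the other genes had 4.59% and 12.9%. H3K27ac was present at nearly every gene throughout, with 34 of the 35 called in both 2 h lists (98.2% of the other genes) and 34 in all 8 lists (97.5%); within 1 kb it was called at 33 genes in both 2 h lists (95.8%). Since the comparison group was picked for H3K27ac at 0 h, its share at 0 h is set by that choice. The differences between the shares of the signalling genes and of the other genes were not tested.

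**Figure D2:**
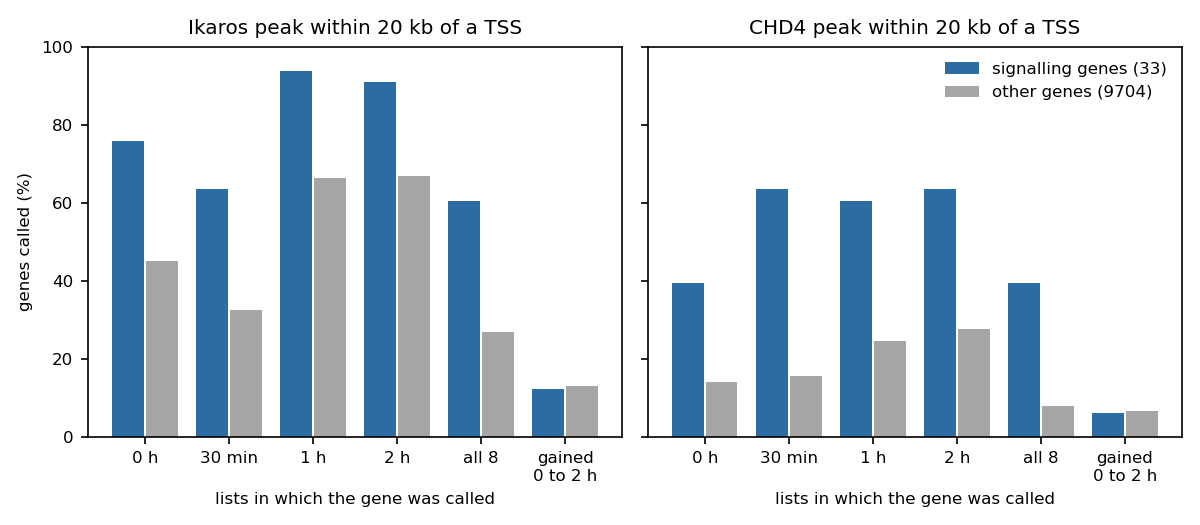
Share (%) of the 33 signalling genes (blue) and of the 9704 other genes (grey) with an Ikaros peak (left) or a CHD4 peak (right) within 20 kb of a TSS in both lists of a time, in all 8 lists, or in both 2 h lists and neither 0 h list (gained). For CHD4 in all 8 lists the shares are 39.4% and 7.93%, and for genes gained by Ikaros 12.1% and 13.0%.

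All 5 genes of the receptor and co-receptor group had an Ikaros peak within 20 kb in both 0 h lists (other genes 45.2%) and both 2 h lists (67.0%). All but Cr2, which had none in the second 30 min list, were called in all 8 (27%). Cd79a, a signalling chain of the receptor, had Ikaros ranks of 99.1 and 99.9 at 0 h, 99.0 and 96.1 at 30 min, 97.8 and 100.0 at 1 h, and 99.8 and 99.3 at 2 h. All 8 values lay at the top of their lists, and the times overlapped. The strongest region near Cd79a lay 13010 bp from its TSS, in an untranslated region of Rps19 (chr7:24883911-24885084), and overlapped a CHD4 peak in 1 list, whereas the region next to the Cd79a TSS (chr7:24895548-24898033, summit 156 bp away) overlapped CHD4 in all 8.

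Cd79b, the partner chain, had Ikaros ranks of 82.8 and 93.8 at 0 h, 96.7 and 98.7 at 30 min, 98.6 and 58.6 at 1 h, and 98.8 and 99.2 at 2 h. Both 2 h values lay above both 0 h values, by 10.7 on average. The region near it that was called in all 8 lists lay 6253 bp from the TSS in intergenic sequence (chr11:106306544-106308939). For CHD4, Cd79b was the gene with the highest mean rank at 2 h, 97.9, followed by Cd79a at 97.5. CHD4 ranks at Cd79a were 81.4 and 71.3 at 0 h and 98.9 and 96.0 at 2 h, with no overlap between the times.

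Among the inhibitory co-receptors, Cd72 had mean Ikaros ranks of 56.5 at 0 h and 90.0 at 2 h and Cd22 of 66.2 and 87.4, and neither passed the limma test across genes. A region at the Cd22 promoter (chr7:30879038-30879884, summit 42 bp from a TSS in an untranslated region) was called in neither 0 h list and in all 6 later lists. Cr2, the complement receptor CD21, had no CHD4 peak in either 0 h or either 30 min list. It had CHD4 ranks of 42.2 and 20.3 at 1 h and of 80.3 and 75.0 at 2 h, when 6 and 2 peaks were called. This gain ended within 50 kb and at a −log10 q of at least 3. Ikaros at Cr2 was called in 7 of the 8 lists, at mean ranks of 61.5 at 0 h and 65.2 at 2 h.

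The proximal kinases held 2 of the 4 genes that gained Ikaros, that is, genes called in both 2 h lists and neither 0 h list. These were Blk, Btk, Dok3 and Bank1, which is 12.1% of the 33, where 13.0% of the other genes gained it, so the shares were close. The 2 h lists held 14225 and 14179 peaks and the 0 h lists 7822 and 9527, so the count was repeated with lists of equal size. Then 3 genes gained Ikaros, Akt1, Blk and Dok3, and 5.94% of the other genes did, and the gains of Bank1 and Btk ended. The gain of Dok3 ended within 50 kb, that of Btk also within 5 kb, and that of Blk with the gene start only. No signalling gene lost Ikaros by the reverse rule, and 0.701% of the other genes did.

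Blk, a Src-family kinase of B cells, had no Ikaros peak in either 0 h list, a rank of 61.6 in 1 of the 30 min lists, 24.5 and 89.1 at 1 h, and 91.7 and 79.9 at 2 h. The 2 h folds over background were 6.49 and 6.35. The region (chr14:63376927-63377687) lay in an intron of Blk with its summit 878 bp from a TSS, and carried H3K27ac in all 8 lists and CHD4 in 3, none of them at 2 h. Btk, the Tec-family kinase mutated in X-linked agammaglobulinaemia, had Ikaros ranks of 27.1 and 68.4 at 30 min, 24.5 and 89.9 at 1 h, and 46.7 and 59.4 at 2 h, and none at 0 h. No single merged region near Btk met the rule for a newly bound region, and the peaks of the 2 h lists lay apart, 159 bp and 18115 bp from a Btk TSS. Btk had no CHD4 peak in any list.

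Of the other kinases, Syk was among the strongest Ikaros genes, at mean ranks of 87.9 at 0 h and 94.3 at 2 h, and its CHD4 was missing from 1 list only. Lyn, a Src-family kinase that also starts inhibitory signals, had mean Ikaros ranks of 94.0 at 0 h, 58.1 at 30 min and 79.7 at 2 h. Fyn, of the same family, was the other gene, beside Cr2, that gained CHD4, with no peak at 0 h, ranks of 62.5 in 1 of the 30 min lists and 77.1 in 1 of the 1 h lists, and ranks of 53.1 and 52.1 at 2 h. These 2 genes are 6.06% of the 33, and 6.68% of the other genes gained CHD4. None of the 33 lost it (other genes 0.495%). The CHD4 peak at Fyn lay on the newly bound Ikaros region in its intron (chr10:39412637-39413866, summit 6807 bp from a TSS), which was called for Ikaros in all 6 lists after induction, at ranks of 97.2 and 69.3 at 2 h, and for CHD4 in both 2 h lists and 1 of the 1 h lists. Fyn did not gain CHD4 within 5 kb or 50 kb or with the gene start only. Nor did it at a −log10 q of at least 3 or with lists of equal size. With lists of equal size 3 genes gained CHD4, Bank1, Cr2 and Ptpn6, and 2.44% of the other genes did.

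**Figure D3:**
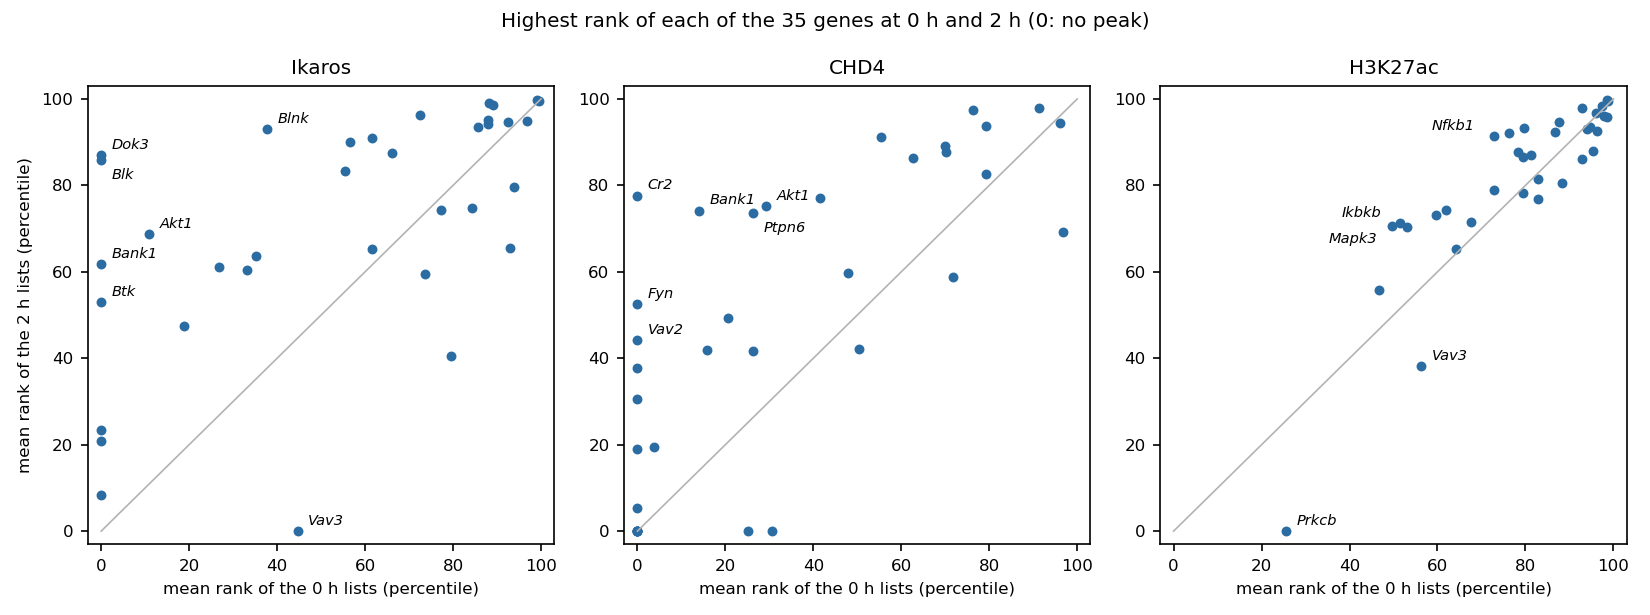
Mean percentile rank over the 0 h lists (x axis) against that over the 2 h lists (y axis) for the 35 genes, 0 where a list has no peak, with the line of equal rank. The genes that gained a peak, Dok3, Blk, Bank1 and Btk for Ikaros and Cr2 and Fyn for CHD4, stand at 0 on the x axis together with others that had no 0 h peak, and Prkcb stands at 25.6 and 0 for H3K27ac.

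The adaptors held the other 2 genes that gained Ikaros. Dok3, an inhibitory adaptor, had no Ikaros peak at 0 h, a rank of 31.3 in 1 of the 30 min lists, 32.9 and 64.2 at 1 h, and 92.5 and 81.5 at 2 h, with folds of 6.56 and 6.40. The 2 h values lay above all others. The region (chr13:55526957-55528734) had its summit in an exon of Dok3, 420 bp from a TSS, and overlapped CHD4 and H3K27ac in all 8 lists, so that both were called there at 0 h, when Ikaros was not. Dok3 also had the highest mean H3K27ac rank of the 35 genes at 2 h, 99.7, and 98.6 at 0 h. Bank1, a scaffold of B cells, had no Ikaros peak at 0 h, ranks of 79.8 and 86.2 at 1 h and of 53.3 and 70.2 at 2 h. At its promoter (chr3:136325683-136326330, summit 88 bp from a TSS) Ikaros was called in 5 lists, none at 0 h, and CHD4 in both 1 h and both 2 h lists. At another TSS of Bank1 a separate CHD4 peak was called in the second 0 h list, at rank 28.0.

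Blnk, the adaptor that couples Syk to Plcg2, showed the largest difference in Ikaros rank at 2 h among the genes called in every list. Its ranks were 13.4 and 62.0 at 0 h, 75.8 and 65.8 at 30 min, 85.3 and 80.5 at 1 h, and 94.7 and 91.4 at 2 h. All values after induction lay above both 0 h values, and the 0 h values lay far apart. The difference at 2 h was 55.4 ± 15.7 (SE, n = 2), with a limma adjusted p of 0.180. Pik3ap1, which brings PI3 kinase to the receptor, stayed high at mean Ikaros ranks of 92.5 and 94.7, and Grb2, which links the receptor to Ras, had mean ranks of 61.6 and 90.9.

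The 5 genes of the lipid enzyme group, which includes the kinase Akt1, were all called for Ikaros in both 0 h lists (other genes 45.2%) and both 2 h lists (67.0%), and for CHD4 in both 2 h lists (27.7%). Plcg2, the phospholipase that releases the calcium signal, had Ikaros ranks of 91.5 and 86.8 at 0 h, 95.9 and 97.4 at 30 min, 97.6 and 96.2 at 1 h, and 99.6 and 97.7 at 2 h. Each later value lay above both 0 h values. Pik3r1, the regulatory subunit of PI3 kinase, had ranks of 89.9 and 55.2 at 0 h, 94.8 and 17.6 at 30 min, 98.7 and 97.3 at 1 h, and 96.4 and 96.3 at 2 h, so that the spread between replicates was wide before 1 h and narrow after. Its catalytic partner Pik3cd was high throughout, from 89.9 to 99.8, and held a newly bound region in an intron (chr4:149665028-149665862) at ranks of 78.3 and 85.0 at 2 h, beside peaks called in all 8 lists. Inpp5d, the phosphatase that removes the PI3 kinase product, had mean ranks of 85.6 and 93.6.

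Akt1, the kinase downstream of PI3 kinase, had Ikaros ranks of 2.38 and 19.3 at 0 h, 17.7 and no peak at 30 min, 67.7 and 69.9 at 1 h, and 71.0 and 66.5 at 2 h. The 1 h and 2 h values lay close together and above all earlier ones. Ptpn6, the phosphatase SHP-1 that dampens receptor signals, had Ikaros ranks of 85.7 and 90.2 at 0 h, 81.1 and 20.6 at 30 min, 94.1 and 91.4 at 1 h, and 96.2 and 94.2 at 2 h. Its second 30 min value stood apart from the rest, in the shortest Ikaros list. Its folds were 7.54 and 9.60 at 0 h and 7.43 and 8.32 at 2 h. The higher ranks of Ptpn6 at 2 h thus came without higher folds. At Plcg2 the folds were 8.83 and 8.72 at 0 h and 10.4 and 9.92 at 2 h.

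The Vav, Rac and Ras-MAPK branch lies downstream of the receptor complex. There 4 of 8 genes had Ikaros in both 0 h lists (other genes 45.2%) and 5 in both 2 h lists. CHD4 was called at 2 of the 8 in both 2 h lists. In the PKC and NF-kB branch, 4 of 6 had Ikaros in both 2 h lists and 1 of 6 had CHD4. In the receptor, kinase, adaptor and lipid enzyme groups together with Ptpn6, all 21 had Ikaros and 18 of 21 had CHD4 in both 2 h lists. Among the other genes 67.0% had Ikaros and 27.7% had CHD4 in both 2 h lists. The 14 downstream genes, with 9 and 3, were near those shares. They include Vav3 and Prkcb, which lie outside the comparison group by their promoter H3K27ac and add to neither count. All 21 genes of the other groups met its criterion. The difference between these sets of genes was not tested.

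Rac2, the haematopoietic Rac GTPase, was the strongest of all 35 genes for Ikaros at 2 h. Its ranks were 99.6 and 98.6 at 0 h, 99.8 and 99.1 at 30 min, 99.4 and 96.7 at 1 h, and 99.8 and 99.9 at 2 h, with 5 to 7 peaks in every list. Its strongest region (chr15:78571564-78573375, summit 243 bp from the TSS) overlapped CHD4 in all 8 lists. CHD4 ranks at Rac2 were 71.5 and 87.2 at 0 h and 94.2 and 93.2 at 2 h. Vav1, the exchange factor that activates Rac, had mean Ikaros ranks of 93.0 at 0 h and 65.4 at 2 h, a difference of -27.6 ± 9.79 (SE, n = 2) with a limma adjusted p of 0.251. Of its relatives, Vav2 had mean ranks of 26.7 and 61.1, and Vav3 had an Ikaros peak only in the second 0 h list, at rank 89.5.

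Among the Ras-MAPK genes, Hras, a Ras GTPase, had mean Ikaros ranks of 73.5 at 0 h, 21.2 at 30 min and 59.4 at 2 h, and Map2k1, the kinase MEK1, of 18.8 at 0 h and 47.4 at 2 h. Mapk3, the kinase ERK1, was called in both 0 h lists, at 82.8 and 76.4, and in 1 of the 2 h lists, at 81.0. Sos1, the Ras exchange factor, had Ikaros only in the second 2 h list, at 41.8. In the NF-kB branch, Malt1 had mean Ikaros ranks of 84.3 at 0 h and 74.7 at 2 h, and its partner Bcl10, with which it activates the IkB kinase, of 33.0 and 60.4. Nfkb1, a subunit of NF-kB, had 77.3 and 74.4, and Nfkbia, its inhibitor, 35.2 and 63.7. Ikbkb, a subunit of the IkB kinase, was called in 2 lists at ranks up to 16.9, and Prkcb only in the first 2 h list, at 46.7.

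**Figure D4:**
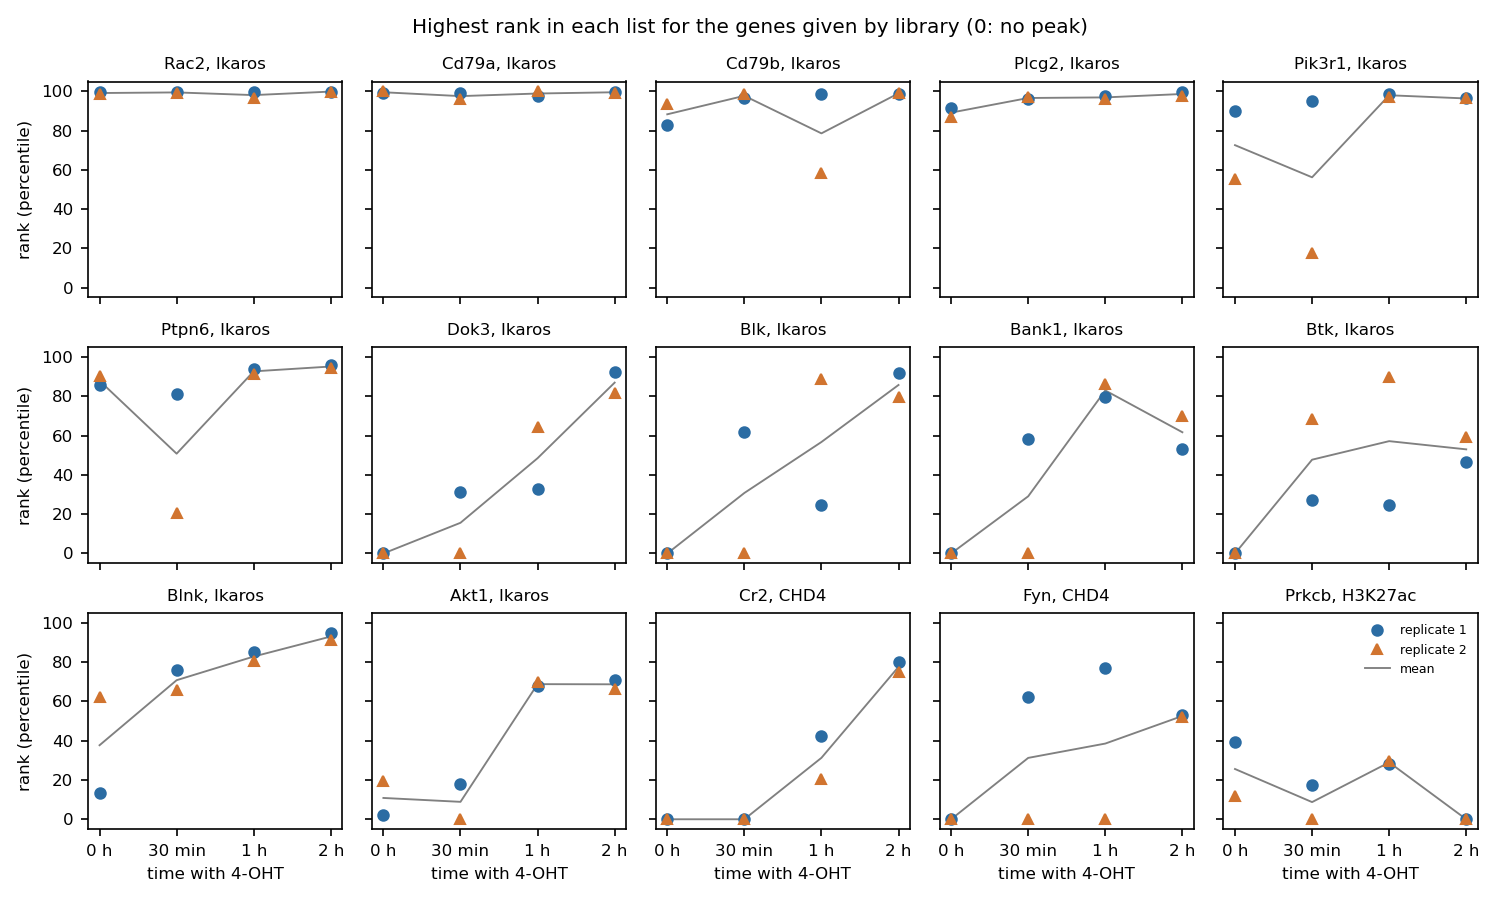
Percentile rank of the strongest peak within 20 kb (y axis, 0 for no peak) by time with 4-OHT (x axis) for the 15 gene and target pairs given list by list, with replicate 1 as circles, replicate 2 as triangles and their mean as a line. Rac2 and Cd79a stay near 100, while Dok3 and Blk go from 0 in both 0 h lists to between 79.9 and 92.5 in the 2 h lists.

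The rank of each gene was compared between times with limma over all genes that had a peak of the target in all 8 lists, with p-values adjusted by the Benjamini-Hochberg method over those genes. For Ikaros 2637 genes were tested, 20 of them signalling genes, and the other 15 (Akt1, Bank1, Blk, Btk, Cr2, Dok3, Ikbkb, Malt1, Map2k1, Mapk3, Nfkb1, Prkcb, Sos1, Vav2 and Vav3) were missing from at least 1 list and were left out. At 30 min 0.265% of the genes tested were called, at 1 h 0% and at 2 h 0.265%, with 7, 0 and 7 genes, and no signalling gene was among them. At an unadjusted p under 0.05 there were 340, 416 and 407 genes, of which 1, 2 and 3 were signalling genes. The median difference from 0 h over the 20 genes was -0.23 points of rank at 30 min, 6.73 at 1 h and 8.72 at 2 h, and over all 2637 genes it was -1.27, 7.75 and 8.55.

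Where genes missing from some lists were kept with a rank of 0, limma called 342 of 8839 genes at 2 h (3.87%), 310 of them higher, and among the 35 these were Dok3 and Akt1. Over the 2637 genes with a peak in all 8 lists, all 7 calls at 2 h were higher on ranks, and 117 of 141 calls were lower on log2 of the fold. At Akt1 the difference in rank was 57.9 ± 11.2 points (SE, n = 2, limma adjusted p = 0.0481), with the second 30 min value set to 0. At Dok3 both 0 h values were set to 0, so that its call restates the missing 0 h peaks and is no separate test.

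CHD4 was tested at 783 genes, of which 13 were signalling genes, and H3K27ac at 9500, of which 34 were. For CHD4 0% of genes were called at 30 min, 1 h and 2 h, with 49, 41 and 42 genes at an unadjusted p under 0.05 and none of the 13 among them. The median CHD4 difference over the 13 genes was 6.62, 12.0 and 14.3 points, and over all genes -1.47, 0.02 and 4.65. The 13 ranged from -27.6 to 35.7 points at 2 h, the highest being Pik3cd. For H3K27ac 0% were called at any time, with 882, 967 and 1203 genes at an unadjusted p under 0.05, of which 1, 5 and 5 were signalling genes. The median H3K27ac difference at 2 h was 2.55 points over the 34 and 3.12 over all genes, and 22 of the 34 were higher at 2 h than at 0 h, as were 69.0% of all genes tested. The extremes at 2 h were 21.1 ± 5.62 (SE, n = 2) at Mapk3, with a limma adjusted p of 0.272, and -18.1 ± 12.2 at Vav3. These are differences of rank. The folds at Mapk3 were 7.87 and 7.22 at 0 h and 7.12 and 8.24 at 2 h, and so overlapped. At Vav3 the folds were 7.53 and 10.1 at 0 h and 4.36 and 3.67 at 2 h. The 0 h lists held 25095 and 21468 peaks and the 2 h lists 33664 and 25141. Whether list length moved the ranks was not tested.

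Of the 35 genes 1 lost H3K27ac, called in both 0 h lists and neither 2 h list. This was Prkcb, the protein kinase C of the NF-kB branch, where 0.721% of the other genes did. Prkcb had 1 H3K27ac peak within 20 kb at ranks of 39.4 and 11.8 at 0 h, 17.5 in 1 of the 30 min lists, and 28.1 and 29.9 at 1 h, and none at 2 h. The peak ranked under 40 in each list that held it, and lay 11100 bp from the nearest TSS of the gene, and no promoter peak was called in any list. It had no CHD4 peak in any list. With no promoter peak, Prkcb stood outside the comparison group, all of which had one at 0 h.

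Merged over the 8 lists, 142 Ikaros regions lay within 20 kb of a TSS of the 35 genes. Of these 29 (20.4%) were called in all 8 lists, against 10.1% of the 16268 regions near the other genes. Newly bound regions, called in both 2 h lists and neither 0 h list, numbered 16 (11.3%, other genes 12.8%), and 3 regions (2.11%, other genes 2.57%) were lost. The 16 lay near 14 of the genes, 8 with a summit within 1 kb of a TSS, and 14 of them carried H3K27ac in all 8 lists. CHD4 overlapped 4 of the 16 in both 2 h lists, at Fyn, Dok3, Blnk and Bank1, 21 of the 29 regions that were called throughout, and 13 of the 94 regions that were neither constant, gained nor lost. These overlaps are a description and were not compared with regions near the other genes. All 29 overlapped CHD4 in at least 1 list and H3K27ac in all 8.

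Of 89 CHD4 regions near the 35 genes, 13 (14.6%) were called in all 8 lists, against 4.38% near the other genes, 7 (7.87%) were newly called (other genes 5.90%) and none was lost (other genes 1.35%). The 7 lay near Cr2, Ptpn6, Inpp5d, Bank1, Fyn, Pik3r1 and Malt1. The region at Cr2 (centre 379 bp from a TSS) overlapped Ikaros in 6 lists and H3K27ac in 8, and that at Pik3r1 (338 bp) overlapped both in all 8 lists. The region near Ptpn6 lay 100 bp from the TSS of Grcc10 and 2251 bp from that of Ptpn6. Of 237 H3K27ac regions, 91 (38.4%) were called in all 8 lists (other genes 43.8%), 7 (2.95%) were newly called (other genes 3.29%) and 2 (0.844%), near Vav3 and Prkcb, were lost (other genes 1.85%).

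The pathway was followed beyond the 35 genes through 37 further components, of which 34 had the 0 h promoter H3K27ac of the comparison group. Among these 34, Ikaros was called at 23 in both 0 h lists and at 30 in both 2 h lists, against 45.2% and 67.0% of the 9704 other genes, and CHD4 at 10 and 15, against 14.1% and 27.7%. CHD4 was gained at 3 (Sos2, Ppp3cb and Jun), where 6.68% of the other genes gained it. Neither Ikaros (other genes 0.701%) nor CHD4 (0.495%) was lost at any. H3K27ac was called at all 34 in both 2 h lists (other genes 98.2%).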

How the data were processed

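ChIP-seq libraries of Ikaros, CHD4 and H3K27ac (24 lists) were analysed, and the input libraries were not analysed on their own. Per the labels, mm10, Bowtie2 2.4.2, Picard 2.23.7, MACS2 2.2.7.1 and deepTools 3.5.0 were used by the authors, with narrow peaks for Ikaros and H3K27ac and broad peaks for CHD4. Their methods cover 0, 1 and 2 h, and settings for 30 min and the use of a blacklist on the lists are not given in the sources used here. Each list deposited by the authors holds for each peak a fold enrichment, which is a ratio to the background nearby, and −log10 values of its p-value and q-value. Fold was ranked within each list, so that ranks are relative to that list and no amount of binding was measured. The −log10 q served only as a filter and the −log10 p, with the fold, to recover the background coverage, which 37.0% to 66.5% of the narrow peaks used (−log10 p under 40) shared within a list and which recovered 4 simulated lists.

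The 35 genes, gene lists and tests were chosen with earlier results of these data known. TSSs came from GENCODE M21, distances were 20 kb, and an overlap needed 1 bp. limma 3.58.1 (R 4.3.3) used a 4-level time factor without a block, was tested on simulated data, and called genes at an adjusted p of 0.05. Genes given list by list were those called by limma, those gained or lost, and the 6 with the highest mean Ikaros rank at 2 h. Blnk, Akt1, the Rac2 sequence and single regions outside the 6 strongest newly bound were chosen after their values were seen. Sequences came from RefSeq's GRCm38.p6. Deviations of same-numbered libraries correlated between -0.03 and 0.12, so the numbers did not pair the samples. Alternatives were other distances, TSS choices, thresholds, list sizes, scales, filters, gene types, the block and leaving out libraries. The further pathway genes that gained Ikaros are not reported here.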

Additional observations from a re-analysis of the deposited data

How the results depend on the processing

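Of 411 values recomputed under alternatives, 347 were counts within 1.5 times the reported one. No signalling gene was called by limma under any alternative except Dok3 and Akt1 with no filter (2, Ikaros at 2 h) and Ptpn6 (1, lower, Ikaros at 30 min) without the first 30 min Ikaros library. Ikaros genes called over the whole table were 0 at 30 min and 0 at 2 h with a replicate block, with ranks among the genes tested and with lists of equal size. With log2 of the fold they were 91, 190 and 141 at 30 min, 1 h and 2 h, of which 74, 145 and 117 were lower, where ranks called 3 of 7, 0 of 0 and 0 of 7 lower. With no filter they were 21, 123 and 342. Within 5 kb they were 0 at 30 min and 12 at 2 h, within 50 kb 3 at 2 h, at a −log10 q of at least 3 they were 4 at 2 h, and with all gene types 47 at 1 h and 43 at 2 h. Leaving out 1 library gave 0 to 91 at 30 min, 0 to 12 at 1 h and 0 to 11 at 2 h. The highest values came without the first 30 min library, and every other library left out gave 0. The 30 min values then rest on 1 library, the shortest list, which is assumed to vary like the other times, so neither the 91 calls nor Ptpn6 is a replicated result. For CHD4 a −log10 q of at least 3 left 17 genes, none of the 35, and called 2 at each time. For H3K27ac log2 of the fold called 7, 6 and 11, ranks among the genes tested 4, 4 and 3, and no filter 1 at each time.

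The number of signalling genes that gained Ikaros was 6 or 7 with 1 list per time, when 24.6% and 26.2% of the other genes gained it, and 3 to 6 under the other alternatives (5.94% to 14%). Ikaros was lost at 2 genes or 0 with 1 list per time (3.5% or 3.62%) and at 0 otherwise (0.546% to 3.54%). At a −log10 q of at least 3, CHD4 was called at 3 genes in both 0 h lists (other genes 1.53%) and 2 in both 2 h lists (1.22%), gained at 0 (0.556%) and lost at 1 (0.495%). With 1 list per time CHD4 was called at 13 or 23 genes at 0 h (other genes 15.8% or 35%) and 21 or 28 at 2 h (32.6% or 54.9%), gained at 8 or 7 (20.8% or 24.6%) and lost at 0 or 2 (3.95% or 4.77%). CHD4 was gained at 0 genes within 50 kb (7.30%) and at 1 within 5 kb (5.73%). The loss of H3K27ac at Prkcb ended (0 genes) within 5 kb, with the gene start only and at a −log10 q of at least 3. The causes were not tested, and neither was depth, which can bear on which weak peaks are called. With 2 libraries a time small differences cannot be seen.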

Other observations

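The 3 Ikaros regions near the signalling genes that were called in both 0 h lists and neither 2 h list lay near Lyn, Ptpn6 and Mapk3. The region at Lyn (chr4:3685126-3685572, in an intron, 7229 bp from a TSS) had ranks of 90.4 and 82.0 at 0 h, no peak at 30 min, 54.1 and 92.4 at 1 h and no peak at 2 h, and overlapped H3K27ac in all 8 lists and CHD4 in none. The regions near Ptpn6 and Mapk3 were likewise called in both 0 h and both 1 h lists and in no 30 min or 2 h list. All 3 were thus called in the same 4 lists. How many of the 418 Ikaros regions lost near the other genes share this pattern was not counted, and the cause was not tested.

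Within 1 kb of a TSS, 7 signalling genes gained Ikaros at 2 h (Bank1, Blk, Cd22, Dok3, Map2k1, Nfkb1 and Vav1), where 13.9% of the other genes did, and 2 gained CHD4 (Cr2 and Syk), where 5.16% did. This distance was chosen after the values were seen.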
